A study of Saccharomyces cerevisiae with 24 samples.

Results

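This report covers the comparison of *med20Δ* yeast with its wild-type parent when both had been given chlorpromazine (CPZ), which took 2 of the 24 two-color arrays in the study, a pair with reversed dyes. The 2 arrays were taken by their titles, and each ratio was turned to *med20Δ* over wild-type. The wild-type was BY4741, a haploid laboratory strain of mating type a that carries *ura3Δ0*, *leu2Δ0*, *his3Δ1* and *met15Δ0*, and the mutant was the isogenic strain with *MED20* replaced by *kanR*. Cultures of both in YPD (30°C, A600 near 0.2) received CPZ for 1 h. The sample labels give the dose as 250 mM whereas the methods of the study give 250 µM. Since the drug was in both cultures, a ratio compares the strains only, and how much CPZ itself changed a gene in one of them is not measured. In replicate 1 the mutant was labeled with Cy3 and in replicate 2 with Cy5. Whether the 2 arrays hold separate cultures or a single pair of RNA samples, and whether the mutant line was 1 clone, is not stated, so the pair counted as 1 replicate with no test between samples. Values are the mean log2 ratio of the pair with replicate 1 and then replicate 2 in parentheses. For a list, the first value is the median of its genes' means, which can lie outside the medians of the arrays in parentheses.

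Med20 is a subunit of the head module of Mediator, the complex that carries signals from DNA-bound regulators to RNA polymerase II. CPZ is a phenothiazine that enters lipid bilayers and disturbs membranes and the secretory pathway. In budding yeast, environmental stress in general lowers transcription of ribosomal protein (RP) genes and of the genes for ribosome assembly (*Ribi*), and raises genes under the regulators Msn2 and Msn4. The comparison with CPZ asks how the strains differ when cells are under this membrane stress.

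Of 6307 ORFs on the array, 5694 had a ratio on both CPZ arrays after flagged spots were removed. Median net intensity, which is foreground minus local background, was between 258.5 and 474 in the 4 channels, and 92.1% to 96% of ORF spots were brighter than the 95th percentile of the spots without a gene name. The ratios of the 2 arrays correlated across genes with r = 0.475, and genes are not independent replicates. The spread of a single array, from the difference between the arrays, was an SD of 0.339. The median over all genes was -0.01, and the medians of the 16 nuclear chromosomes lay between -0.05 and 0.04. For *MED20* (YHR041C) the log2 ratio was -0.53 (-0.20, -0.87), below 0 on both arrays. Its spot was not dark in the mutant, with a net intensity of 557 against 510.5 in wild-type on replicate 1 and 142.5 against 408.5 on replicate 2, so the ratio is a weak check of the label. The spot of *URA3*, which both strains lack, had net intensities of 1352.5 to 4425, and that of *MET15*, which both also lack, had 11.5 to 34. The gene next to *MED20* on one side, *BCD1*, which acts in box C/D snoRNP assembly, had a ratio of -0.83 (-0.65, -1.02), and *NCP1*, the cytochrome P450 reductase gene on the other side, had 0.16 (0.45, -0.13). None of the other Mediator genes measured was past 2-fold, the lowest being *CSE2* at -0.65 (-0.56, -0.75).

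At a mean difference of 2-fold or more, 65 genes (1.14% of 5694) were higher and 123 (2.16%) were lower in *med20Δ*. All 188 had the same sign on both arrays, which selection on the mean of the same arrays largely sets in advance. Of the higher genes 35, and of the lower genes 65, were past 2-fold on each. From replicate 1 alone 141 genes were higher, and from replicate 2 alone 199 were lower. limma fitted over all 24 arrays, in which a p-value covers only the spread between the arrays of a pair, called 348 genes higher (6.37% of the 5459 tested) and 427 lower (7.82%) at an adjusted p under 0.05. It called 59 of the 62 higher and 111 of the 115 lower genes that it could test. Those genes were selected for size on the same CPZ ratios, so this is no separate support. Most genes of the cytoplasmic and mitochondrial ribosome were above 0 on both arrays and most genes of the general stress response were below 0 on both, as the plot of the 2 arrays against each other shows.

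**Figure D1:**
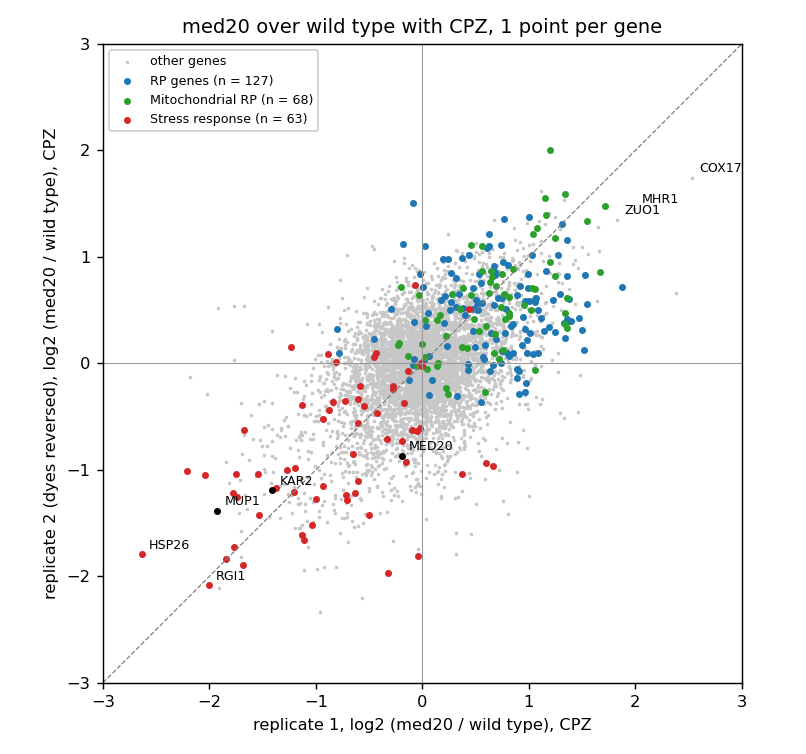
Log2 ratio of *med20Δ* over wild-type with CPZ on replicate 1 (horizontal axis) and on replicate 2 with the dyes reversed (vertical axis), 1 point per gene for 5694 genes. Most of the 127 RP genes (blue) and the 68 mitochondrial RP genes (green) are above 0 on both axes, most of the 63 stress genes (red) are below 0 on both, and *HSP26* and *COX17* are the ends of the range.

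Among the genes past 2-fold on both arrays, the 12 highest ratios were led by *COX17*. This gene, which encodes the copper chaperone that supplies cytochrome *c* oxidase, was at 2.14 (2.53, 1.74). It was followed by *MHR1*, which acts in recombination and maintenance of mitochondrial DNA, at 1.72 (1.99, 1.45). *MRP51* and *MNP1*, which encode mitochondrial ribosomal proteins, were at 1.60 (1.20, 2.01) and 1.60 (1.72, 1.48). Further mitochondrial RP genes were in this group, as were *ATP11*, whose product assembles the F1 part of the ATP synthase, at 1.43 (1.33, 1.54) and *MAM33*, which encodes a matrix protein, at 1.37 (1.11, 1.62). The other genes were *ZUO1*, which encodes the J-protein of the ribosome-associated chaperone complex, at 1.59 (1.83, 1.35), *ERG3*, the sterol C-5 desaturase gene, at 1.46 (1.65, 1.28), and *GAL80*, the repressor of the galactose genes, at 1.36 (1.66, 1.06).

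The 12 lowest ratios were those of *HSP26*, *RGI1*, YOL014W, *RGI2*, *HSP30*, *MPD1*, *SOL4*, *MUP1*, *HXT5*, *DDR48*, *DCS2* and *YRO2*. *HSP26*, which encodes a small heat shock protein that holds unfolded proteins, was at -2.22 (-2.64, -1.79), a mean difference of 4.64-fold. *RGI1* and *RGI2*, which are related genes needed for energy metabolism in respiratory growth, were at -2.04 (-2.01, -2.08) and -1.84 (-1.84, -1.84). The ratio of YOL014W, whose function is not characterized, was -2.01 (-1.91, -2.11). The arrays of these last genes differ by little, and that holds for *HSP30* as well, which encodes a stress protein of the plasma membrane and had -1.79 (-1.68, -1.89). *MPD1*, which encodes a protein disulfide isomerase of the ER, was at -1.76 (-1.70, -1.82). *MUP1*, the gene of the high-affinity methionine permease, was at -1.66 (-1.93, -1.38), and *HXT5*, a hexose transporter gene active in slow growth, was at -1.64 (-1.70, -1.58). The widest gap among the 12 was that of *DDR48*, a gene of the DNA damage and stress response, at -1.61 (-2.21, -1.01).

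**Figure D2:**
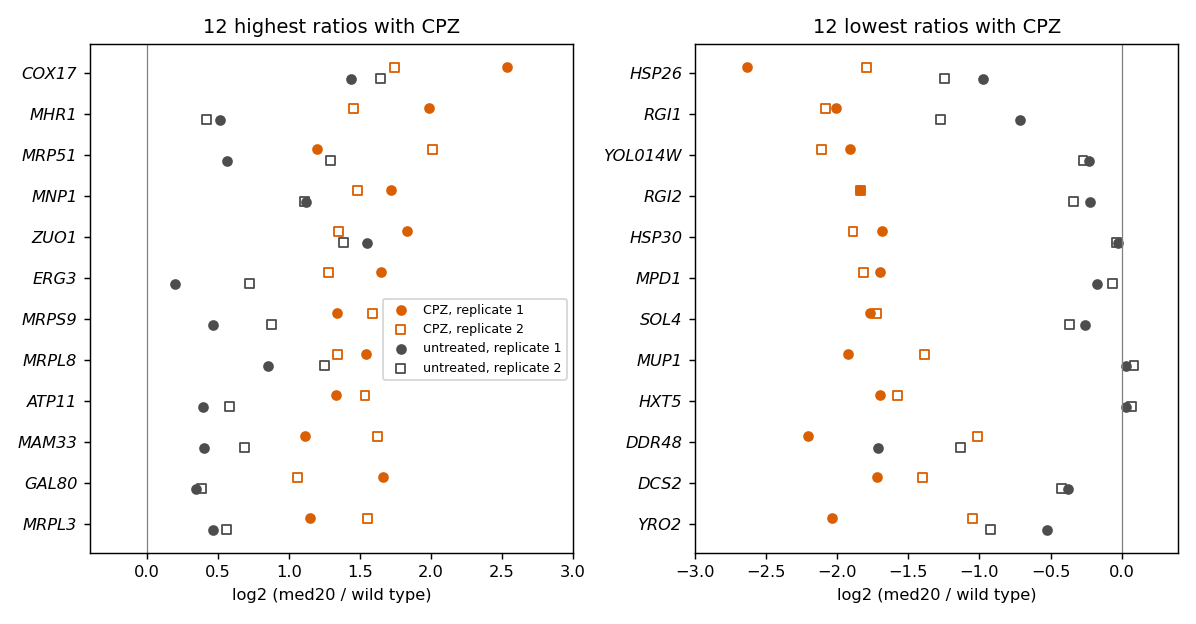
Log2 ratio of *med20Δ* over wild-type for the 12 genes with the highest (left) and the 12 with the lowest (right) mean ratio among those past 2-fold on both CPZ arrays, as 1 symbol per array. Orange symbols are CPZ and gray symbols untreated cells, and *HSP30*, *MUP1* and *HXT5* are near 0 in untreated cells and at -1.38 or lower with CPZ.

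RP genes were as a group higher in the mutant. Of 127 measured, 102 (80.3%) were above 0 on both arrays, against 29.3% of all genes, and 2 were below 0 on both. Their median was 0.58 (0.71, 0.50), with 0.59 for the large and 0.58 for the small subunit. At 2-fold 11 (8.66%) were higher and 0 lower, against 1.14% and 2.16% of all genes. *RPL7B* and *RPL7A*, near-identical genes of the large subunit, were at 1.31 (1.31, 1.31) and 1.15 (1.27, 1.02). *RPL10*, whose product joins the large subunit last, was at 1.30 (1.88, 0.72). Among genes of the small subunit *RPS9A* was highest, at 1.26 (1.36, 1.16). *RPP0*, which encodes the base of the stalk, was at 1.18 (1.52, 0.83). Not every member was higher. *RPL38* was lowest at -0.35 (-0.78, 0.09), and of *RPL28* and *RPL3*, the RP genes that the study followed on blots, the first was at 0.11 (-0.29, 0.51) and the second at 0.80 (0.68, 0.92). Most RP genes come in duplicate copies of nearly the same sequence, and the ratios of such copies cannot be told apart on these spots. The list of RP gene regulators also holds signaling kinases and *MAF1*, whose product represses RNA polymerase III. Of its 22 genes measured, 12 (54.5%) were below 0 on both arrays, against 30.5% of all genes, with a median of -0.20 (-0.18, -0.27). *KOG1*, a subunit of TOR complex 1, was lowest at -1.18 (-0.97, -1.39), and was at -1.67 (-1.07, -2.26) in untreated cells.

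The 132 genes of the small subunit processome and of large subunit assembly, which make up the core of *Ribi*, had a median of 0.16 (0.14, 0.16). On both arrays 71 (53.8%) were above 0 and 12.1% below 0, against 29.3% and 30.5% of all genes, and 1 of them was past 2-fold. That gene was *NAN1*, a subunit of the processome, at 1.06 (1.00, 1.12). With the local background subtracted the median was 0.28. The large subunit list was highest at *REA1*, the AAA-type ATPase of pre-60S particles, with 0.90 (0.84, 0.97). RNA polymerases I and III had a median of 0.12 over 37 genes, with *RPA135*, the second largest subunit of RNA polymerase I, past 2-fold at 1.03 (0.91, 1.14). Translation factors had a median of 0.28 (0.43, 0.23) over 41 genes. The eIF3 subunit gene *TIF34* was at 1.13 (1.11, 1.15) and *TIF11*, which encodes eIF1A, at 1.11 (1.28, 0.95).

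Mitochondrial RP genes had a median of 0.63 (0.66, 0.52) over 68 genes. On both arrays 55 (80.9%) were above 0 and 1 was below 0, against 29.3% and 30.5% of all genes. By 2-fold 12 (17.6%) were higher, against 1.14% of all genes, and 0 lower. Beside *MRP51* and *MNP1*, these included *MRPS9* at 1.46 (1.34, 1.59) and *MRPL8* at 1.44 (1.54, 1.34). *MRPL36* was lowest, at -0.04 (-0.06, -0.03). Other mitochondrial lists had medians nearer 0. Of 39 oxidative phosphorylation genes, which encode subunits of the respiratory complexes and ATP synthase, 0 were past 2-fold, with a median of 0.18 and *ATP5* highest at 0.99 (1.43, 0.56). Of these oxidative phosphorylation genes 56.4% were above 0 on both arrays and 12.8% below 0, against 29.3% and 30.5% of all genes. The 27 genes of cytochrome oxidase assembly were spread in both directions. By 2-fold 4 (14.8%) were higher and 2 (7.41%) lower, against 1.14% and 2.16% of all genes. On both arrays 48.1% of them were above 0 and 14.8% below 0. *MBA1*, a receptor for mitochondrial ribosomes on the inner membrane, was at 1.25 (1.41, 1.09), whereas *COX19*, a metal-binding assembly factor, was at -1.10 (-0.75, -1.45) and *COA1*, another assembly factor, at -1.03 (-0.56, -1.5). TCA cycle genes had 0 of 27 past 2-fold. In lists of this size, as for oxidative phosphorylation, a count of 0 is near the shares of all genes.

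Genes of the general stress response had more members lower by 2-fold than any other of the 42 lists. Lists and members were chosen with earlier results of these data known, so this rank and the shares are description and no test. Of 63 measured, 52 (82.5%) were below 0 on both arrays, against 30.5% of all genes. By 2-fold 23 (36.5%) were lower, against 2.16% of all genes, and 0 higher. The median was -0.72 (-0.71, -0.92). Beside *HSP26*, *RGI1*, *RGI2* and *HSP30*, the group held *SOL4*, a 6-phosphogluconolactonase gene, at -1.75 (-1.77, -1.73). *TPS2* and *TSL1*, which encode subunits of trehalose synthase, were at -1.5 (-1.78, -1.22) and -1.48 (-1.54, -1.43), and were named after their values were seen. *RTN2*, a reticulon gene of the ER, was the highest of the list at 0.47 (0.44, 0.51).

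Of 54 heat shock chaperone genes, 11 (20.4%) were lower and 2 (3.7%) higher by 2-fold, against 2.16% and 1.14% of all genes. The list median was -0.35 (-0.24, -0.14). The 6 that are also in the stress list had a median of -1.14, and 4 of them were lower by 2-fold. The other 48 had a median of -0.01 (-0.15, -0.00), so the shift of the list rests on part of its members. *HSP104*, which encodes the disaggregase, was at -1.5 (-1.74, -1.25). *KAR2*, which encodes the Hsp70 of the ER, was at -1.30 (-1.41, -1.19). The J-proteins of the cytosol *SIS1* and *YDJ1*, the second named after its values were seen, were at -1.19 (-0.90, -1.49) and -1.19 (-0.70, -1.68). *SSA2*, also named afterwards, had -1.15 (-2.02, -0.28) and so rests on replicate 1. The 2 higher genes were *ZUO1* and its partner *SSZ1*, at 1.14 (1.26, 1.02), which work at the ribosome.

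Genes of ER folding had 4 of 53 (7.55%) lower by 2-fold, against 2.16% of all genes, and 0 higher, with a median of -0.02. These were *MPD1*, *KAR2*, *ERO1*, which encodes the oxidase that renews disulfide isomerases, at -1.08 (-0.71, -1.44), and *HAC1*, which encodes the regulator of the unfolded protein response, at -1.18 (-1.20, -1.16). The highest was *CPR5*, a cyclophilin gene, at 0.78 (0.92, 0.64). The ER list as a whole was thus centered near 0 with a few genes far below it.

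Of 24 hexose transporter and sensor genes, 7 (29.2%) were lower by 2-fold, against 2.16% of all genes, and 0 higher. Their median was -0.28 (-0.26, -0.33). After *HXT5* came *HXT6* at -1.47 (-1.81, -1.12) and *HXT13* at -1.27 (-1.63, -0.91). *HXT7* was at -1.24 (-1.26, -1.22), and *HXT6* and *HXT7* are near-identical and cannot be told apart here. *HXT8* was at -1.17 (-1.03, -1.31), *GAL2* at -1.11 (-0.92, -1.29), and *HXT3*, named after its values were seen, at -1.02 (-1.24, -0.80). The glucose sensor gene *SNF3* was highest, at 0.66 (0.42, 0.90). Glycolysis genes had a median of -0.46 (-0.56, -0.10) with 2 of 31 (6.45%) lower by 2-fold. The arrays disagreed in size on these bright spots, as for *PGK1* at -1.15 (-2.18, -0.12).

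Of 35 genes of sulfate assimilation and methionine, 4 (11.4%) were lower by 2-fold, against 2.16% of all genes. They were the permease genes *MUP1* and *MUP3*, the second at -1.08 (-0.84, -1.32), *MET28*, which encodes a partner of the regulators Met4 and Cbf1, at -1.25 (-1.34, -1.15), and *MET6*, the methionine synthase gene, at -1.04 (-1.70, -0.37). The list median was -0.20 (-0.28, -0.01). Amino acid biosynthesis genes in general had a median of 0.15 over 54 genes, and *ILV6* at 1.10 (1.19, 1.01) and *GDH1* at 1.06 (1.29, 0.84) were higher by 2-fold. The 3 copies of *ASP3* measured, which encode cell wall asparaginase, were higher by 2-fold, between 1.28 and 1.30. Being near-identical, they count as a single observation.

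Among genes that act at membranes, the site of CPZ action, the sphingolipid and multidrug lists were shifted downward and the sterol list held genes in both directions. In sphingolipid metabolism 4 of 32 (12.5%) were lower by 2-fold, against 2.16% of all genes. On both arrays 46.9% of that list were below 0 and 12.5% above 0, against 30.5% and 29.3% of all genes. *RSB1*, which encodes an exporter of sphingoid bases, was at -1.36 (-0.81, -1.91). *IPT1* and *SUR1*, which act in the last steps of complex sphingolipid synthesis, were at -1.14 (-1.41, -0.87) and -1.12 (-1.46, -0.78), and *PIL1*, the eisosome core gene, was at -1.15 (-0.33, -1.96). In multidrug resistance 4 of 43 (9.3%) were lower and 0 higher by 2-fold, with a median of -0.25 (-0.18, -0.33). Of these 43 genes 60.5% were below 0 on both arrays and 11.6% above 0. *RSB1* and *IPT1* are in that list too, and the other 2 were *GRE2*, a methylglyoxal reductase gene, at -1.11 (-0.82, -1.40) and *PDR15*, an ABC transporter gene, at -1.05 (-1.61, -0.48). Sterol synthesis had genes in both directions. *ERG3* and *ERG2*, which act late in the pathway, were higher, the second at 1.01 (0.87, 1.16), while *ERG9*, the squalene synthase gene, was lower at -1.16 (-1.11, -1.22). Of 65 cell wall genes 1 (1.54%) was higher and 2 (3.08%) were lower by 2-fold, near the shares of all genes, 1.14% and 2.16%. They included *SPI1* at -1.39 (-1.75, -1.04) and *SRL1* at 1.20 (1.43, 0.97), both of which encode cell wall mannoproteins. Fatty acid and phospholipid synthesis, proteasome, histone, redox defence, phosphate starvation, TIP and TIR and mating type genes had 0 members past 2-fold. In lists of this size that is near the shares of all genes and is no result about these groups. Of the 123 lower genes, 65 were in none of the lists, as were 24 of the 65 higher genes.

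**Figure D3:**
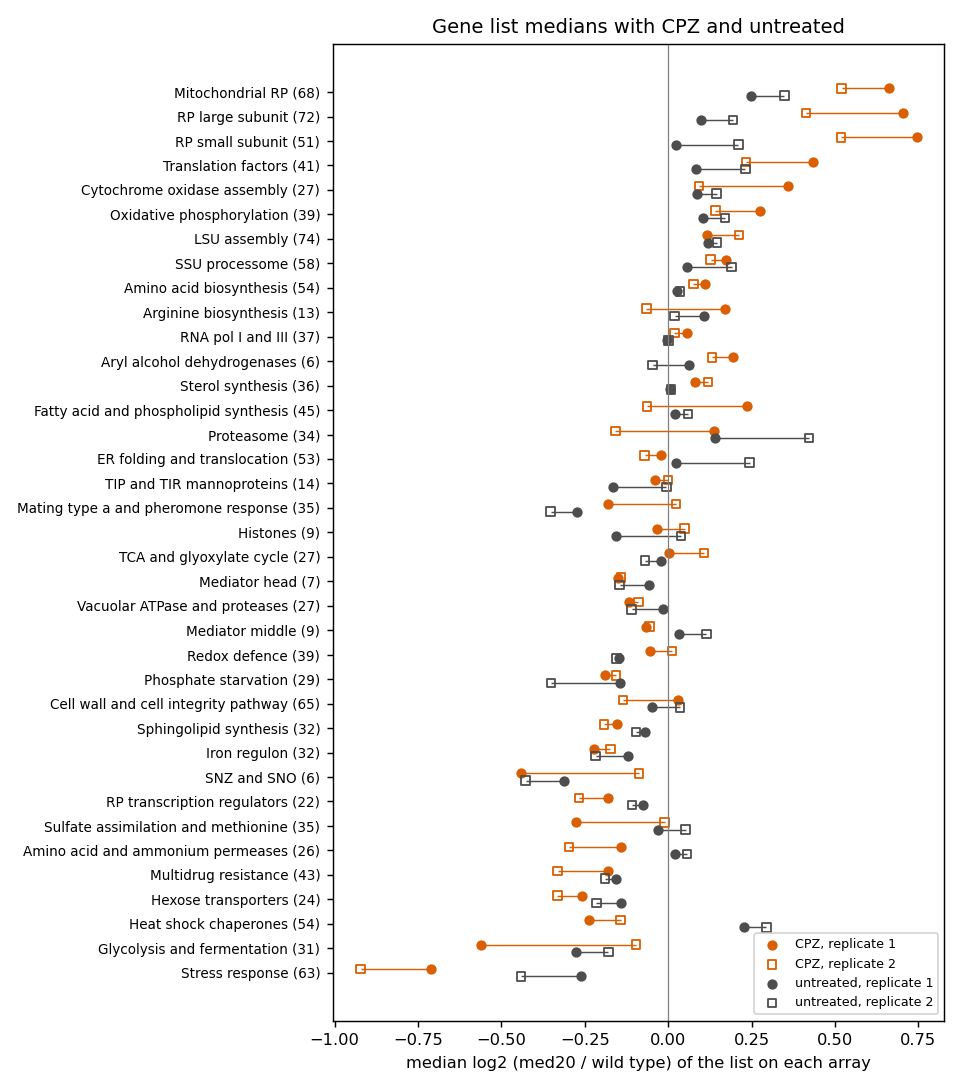
Median log2 ratio of *med20Δ* over wild-type for each gene list with 5 or more measured genes (number in brackets), as 1 symbol per array, for CPZ (orange) and untreated cells (gray). The RP and mitochondrial RP lists lie to the right and the stress list to the left on both CPZ arrays, and heat shock chaperones are below 0 with CPZ and above 0 in untreated cells.

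To see which differences between the strains were already there without CPZ, the ratios were set beside those of untreated cells, measured on another pair of arrays. There 14 genes (0.245% of 5714) were higher and 39 (0.683%) were lower by 2-fold. Of the 63 CPZ-higher genes measured in both, 59 were above 0 on both untreated arrays and 5 were past 2-fold. Of the 122 CPZ-lower genes, 92 were below 0 on both and 12 were past 2-fold. The share of all genes with the same sign on both untreated arrays was not counted. In untreated cells the median was 0.45 for the CPZ-higher genes and -0.39 for the CPZ-lower genes, against -0.006 for all genes. The 5 are 7.94% of the CPZ-higher and 35.7% of the untreated-higher genes, and the 12 are 9.84% and 30.8% of the corresponding lower sets. Across 5648 genes the ratios correlated with r = 0.465. Differences that were large in both included *COX17*, at 1.54 (1.44, 1.65) in untreated cells, and *ZUO1*, at 1.47 (1.55, 1.39). *HSP26* was at -1.11 (-0.98, -1.24) and *DDR48* at -1.42 (-1.71, -1.13) without CPZ.

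Against untreated cells, both CPZ arrays lay above both untreated arrays for 19.3% of 5648 genes and below for 19.4%. For RP genes the first share was 57.9% (73 of 126), and their untreated median was 0.13 (0.06, 0.21). For mitochondrial RP genes it was 59.7% (40 of 67), with an untreated median of 0.27 (0.25, 0.35). *Ribi* genes were near the share of all genes, at 20.5% (27 of 132). Below the untreated arrays lay 61.1% of heat shock chaperone genes (33 of 54), 44.4% of stress genes (28 of 63) and 40.4% of ER folding genes (21 of 52). The stress list was below 0 in untreated cells too, at -0.31 (-0.26, -0.44), with 6 genes lower by 2-fold. Untreated medians were 0.24 (0.23, 0.29) for heat shock chaperones and 0.15 (0.02, 0.24) for ER folding. The difference between the mean ratios was 2-fold or more upward for 37 genes and downward for 84, and with replicate 1 of CPZ left out these were 90 and 165. With untreated replicate 1 left out 121 lay upward, and with CPZ replicate 2 left out 76. The contrast in limma called 108 of 5421 genes (1.99%) at an adjusted p under 0.05, again over the spread between arrays only.

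The largest downward differences among genes whose arrays did not overlap were those of YOL014W, *HSP30*, *KAR2*, *MUP1* and *HXT5*. *KAR2* was at 0.43 (0.37, 0.49) in untreated cells, a difference of -1.73. For *MUP1* and *HXT5* the untreated ratios were 0.06 (0.03, 0.09) and 0.05 (0.03, 0.07). The strains therefore did not differ by 2-fold at these genes before treatment and differed by about 3-fold with it, 3.15-fold for *MUP1* and 3.11-fold for *HXT5*. The largest upward differences were those of *AGA2*, *UFE1*, *GCV3*, *PRM7* and *STE2*. *AGA2*, which encodes the binding subunit of a-agglutinin, was at -1.65 (-1.57, -1.73) in untreated cells and at -0.04 (0.27, -0.35) with CPZ. *STE2*, the alpha-factor receptor gene, was at -0.68 (-0.80, -0.56) and at 0.71 (0.60, 0.82). *UFE1*, a t-SNARE gene of the ER, was at -0.70 (-0.13, -1.27) and at 0.77 (0.91, 0.63), and *GCV3*, a subunit gene of glycine decarboxylase, was at -1.13 (-1.19, -1.07) and at 0.30 (0.49, 0.11). *AGA2* and *STE2* belong to the mating genes of a cells, of which 48.6% (17 of 35) lay above the untreated arrays with CPZ. *PRM7*, a pheromone-regulated gene outside that list, was at -0.14 (0.03, -0.31) without and at 1.30 (1.5, 1.09) with CPZ.

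**Figure D4:**
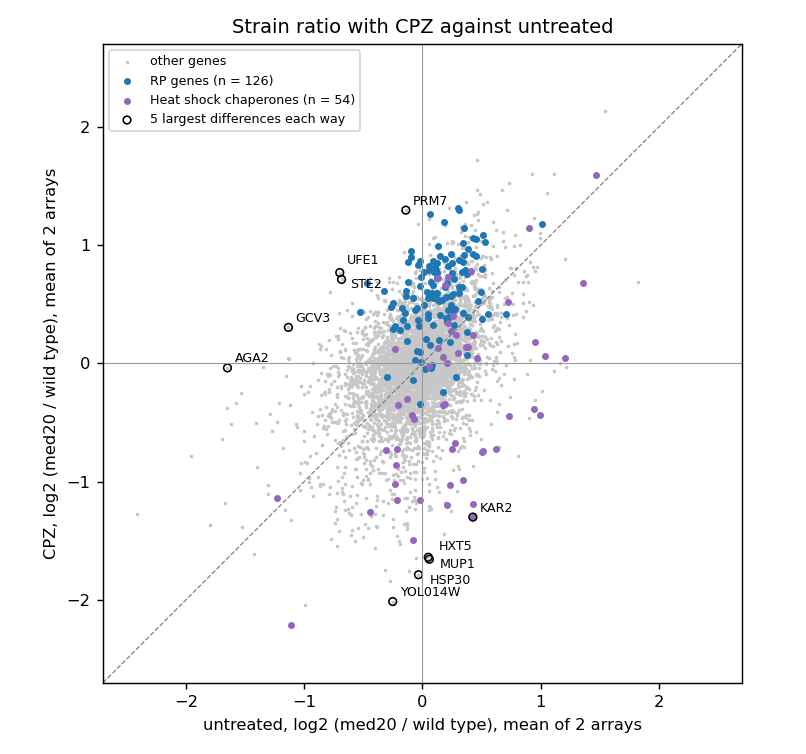
Mean log2 ratio of *med20Δ* over wild-type in untreated cells (horizontal axis) and with CPZ (vertical axis), 1 point per gene, with the diagonal dashed. RP genes (blue) lie mostly above the diagonal and many heat shock chaperone genes (purple) below it, and the circled genes are the 5 largest differences in each direction among genes whose arrays did not overlap.

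The same strains were compared in 5 further conditions, each on its own pair of arrays, and the values are set side by side. The conditions differed in more than the agent. Rapamycin was given for 1 h as CPZ was, tunicamycin for longer, and hydrogen peroxide for a shorter time. Heat-shocked cells were briefly moved to warmer medium, and diauxic cells were grown far longer before harvest. The part of time, temperature and growth stage in the differences between conditions was not tested. At 2-fold, 1.86% of genes were higher and 0.743% lower with tunicamycin, which blocks N-glycosylation in the ER, and 2.11% and 1.81% with rapamycin, the TOR inhibitor. The shares were 2.83% and 1.54% with hydrogen peroxide, 0.823% and 2.01% after heat shock, and 0.892% and 1.98% past the diauxic shift. Tunicamycin had the highest correlation with CPZ across genes, r = 0.656, and hydrogen peroxide the lowest, -0.109. Of the 63 CPZ-higher genes measured with tunicamycin 22 were higher there as well, which is 34.9% of them and 21% of the tunicamycin-higher genes. Of the 120 CPZ-lower genes 20 were lower, 16.7% of them and 47.6% of the tunicamycin-lower genes. With hydrogen peroxide 3 of the 123 CPZ-lower genes were lower and 32 were past 2-fold in the other direction.

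The RP median with CPZ, 0.58, was under that with tunicamycin, 1.22 (1.21, 1.12), and with rapamycin, 1.43 (1.21, 1.68), and near that of diauxic cells, 0.48 (0.73, 0.27). It was -0.28 (0.20, -0.88) with hydrogen peroxide and -0.07 (0.12, -0.29) after heat, where the arrays of the pair differed in sign. Mitochondrial RP genes varied less, from 0.27 after heat to 0.63 with CPZ, and were above 0 in every condition. The stress list was at -0.72 with CPZ and -0.31 (-0.26, -0.44) in untreated cells. It was between -0.50 and -0.55 with tunicamycin, rapamycin and heat, -0.91 in diauxic cells and 0.37 (0.34, 0.47) with hydrogen peroxide. *HSP104*, a gene of this list, departed from the list median after heat. It was at -1.49 (-1.45, -1.54) in diauxic cells, 1.18 (0.91, 1.45) after heat and 2.33 (2.07, 2.60) with hydrogen peroxide, against -1.5 with CPZ. *KAR2*, which is outside the stress list, was at -1.60 (-1.63, -1.57) in diauxic cells, -0.69 (-1.02, -0.35) with tunicamycin and 1.45 (0.95, 1.95) after heat.

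Of the 65 higher genes 29 were not past 2-fold upward in any of the 6 other conditions, untreated cells included, and 1, *COX17*, was past it in all of them, from 1.01 (1.05, 0.97) after heat to 2.36 (2.96, 1.76) in diauxic cells. Of the 123 lower genes 61 were not past 2-fold downward in any other condition. *MUP1* is one of these, its other ratios lying between -0.33 (-0.35, -0.30) with tunicamycin and 0.52 (0.43, 0.61) with rapamycin. *MPD1* came closest after heat, at -0.93 (-0.84, -1.02). In these counts a gene without a ratio in a condition was taken as not past 2-fold there. Of the higher genes 61, and of the lower genes 117, were measured in all conditions. The matching share over all genes was not counted. A threshold in one condition and not in another does not show that the conditions differ, and only the contrast with untreated cells was fitted.

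**Figure D5:**
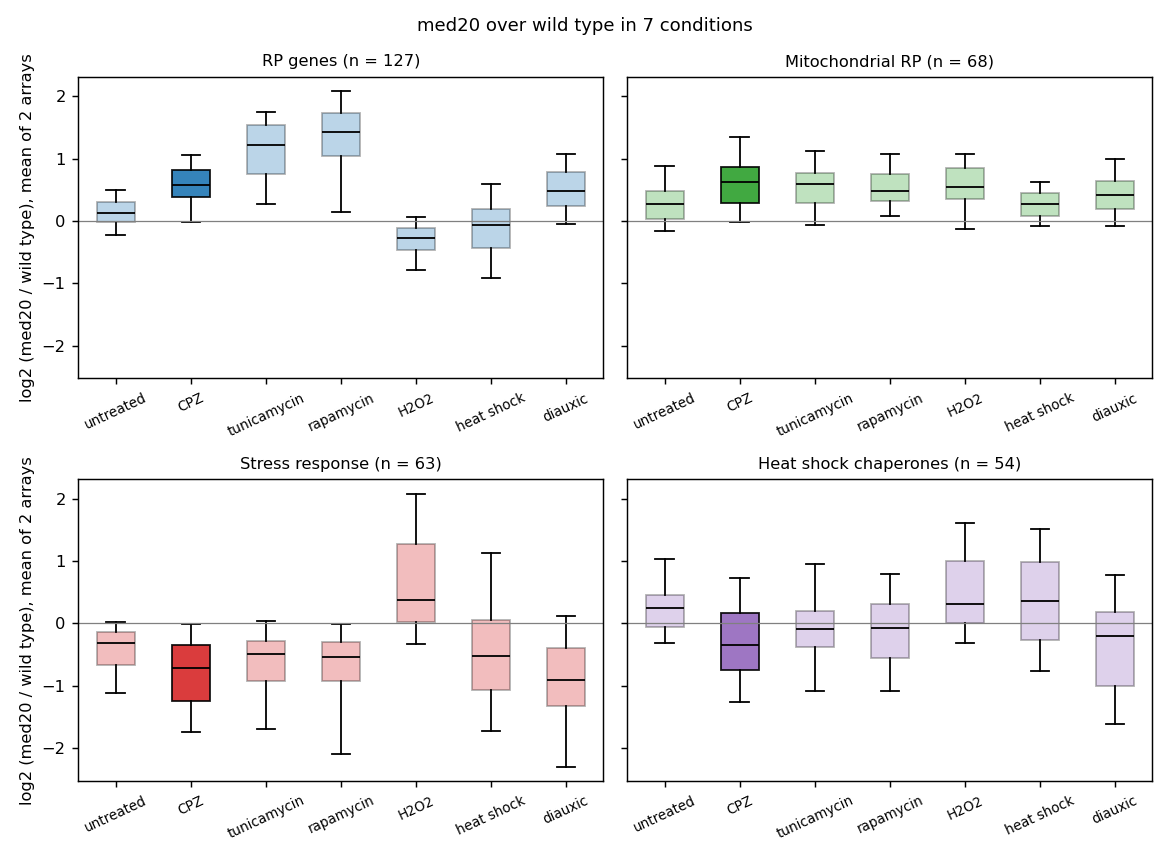
Mean log2 ratio of *med20Δ* over wild-type for the genes of 4 lists in 7 conditions. Boxes reach from the lower to the upper quartile of the genes with a line at the median and whiskers reach the 5th and 95th percentiles, with CPZ in the darker box. The CPZ median of RP genes is 0.58, under those of tunicamycin and rapamycin, and that of the stress genes is -0.72, with 0.37 for hydrogen peroxide.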

How the data were processed

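Poly(A)+ RNA of 2 strains was labeled with Cy5 and Cy3 and hybridized to spotted ORF arrays. The authors deposited, per array, foreground and local background intensity in both channels, a raw log10 ratio (background-subtracted Cy5 over Cy3) and a normalized log10 ratio. The deposited series table repeats the latter (largest difference 0 over 24 columns). Its normalization is given by citation only, and its CPZ medians of 0.00478 and 0.00555 place it near 0. The scanner, image software and meaning of the flags are not given in the sources used here.

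Starting from these, limma 3.58.1 (R 4.3.3) gave normexp-corrected intensities (offset 50) and a loess fit for each array, and the ratios were turned to *med20Δ* over wild-type and expressed as log2 of the deposited intensities. The 576 control spots and all spots with a flag other than 1 (583 and 576 ORF spots) were left out. No spot reached the scanner limit. The 29 spots without a gene name set the background of a channel, at their 95th percentile. Tables were made with pandas 2.3.3 and numpy 2.4.6 and plots with matplotlib 3.10.9, under Python 3.11.15. Names come from the R64 gene table by locus tag. Of the ORFs, 5801 matched and 506 did not. *MED20* and *MET15* keep the names used by the study.

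A pair was 1 replicate, and a gene was called at 2-fold on the mean. limma over all 24 arrays, on genes measured on 20 or more, was an alternative. The 42 gene lists were written by hand. Members and lists were chosen with earlier results of these data known. Named genes were *MED20*, its neighbors, Mediator and strain marker genes, *RPL3* and *RPL28*, the 12 highest and 12 lowest ratios past 2-fold on both arrays, up to 6 called genes of each list with its highest and lowest member, and the 5 largest differences from untreated cells in each direction. Others are stated to be named afterwards.

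In simulated arrays of the CPZ comparison (5694 genes, noise SD 0.339), 65 of 100 genes changed 2.5-fold and 89 of 100 changed 4-fold were called, with 0 of 5376 unchanged genes. A shift of 0.5 in RP genes came back as 0.419.

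Alternatives were no background correction, local background subtraction, median centering, loess fitted outside the ribosomal lists, flagged spots kept, the dimmest 25% of spots removed, normalized ratios as deposited, either array alone, other thresholds and limma. Promoter motifs had been planned and were not analysed here.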

Additional observations from a re-analysis of the deposited data

Results flagged for a closer look

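Of the genes in the lists that were called with CPZ, 9 had ratios below 0 on both CPZ arrays and above 0 on both untreated arrays. With 1 replicate per condition, limma's contrast covers only the spread between arrays and is no test between cultures, and the untreated ratios of *MUP1*, *HXT5* and *MUP3* are close to 0. The genes were also picked by size and sign on the arrays that the contrast uses. That choice largely sets a difference in advance, so the p-values below are no separate support. The difference of the mean log2 ratios, CPZ minus untreated, was -1.73 for *KAR2* (adjusted p = 0.00217 in limma), -1.71 for *MUP1* (0.000306), -1.69 for *HXT5* (0.0012) and -1.22 for *MUP3* (0.00479). It was -1.37 for *ERO1* (0.00222), -1.62 for *YDJ1* (0.00844) and -1.16 for YNL194C, a stress list gene (0.0106), also by limma. For *SIS1*, -1.40, and *CUR1*, a gene for sorting of misfolded proteins, -1.26, too few arrays gave a value for the fit and the difference was not tested. The median of the heat shock chaperone list was below 0 on both CPZ arrays (-0.24, -0.14) and above 0 on both untreated arrays (0.23, 0.29). The difference of its medians of gene means was -0.59, while the median of the differences of single genes was -0.47, and neither was tested. Without the stress genes the list had a CPZ median of -0.01 and an untreated median of 0.27.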

How the results depend on the processing

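The numbers of genes depended on the threshold and the handling of background, and the cause was not tested. Of genes higher with CPZ there were 65, against 120 with local background subtracted, 110 in the authors' normalized ratios, 35 at 2-fold on both arrays, 331 at 1.5-fold and 76 to 141 when either array was left out. Lower genes numbered 123, against 189 with local background subtracted, 65 at 2-fold on both arrays, 382 at 1.5-fold and 145 to 199 from either array. limma called 348 higher and 427 lower without and 381 and 454 with a replicate block, and 464 and 527 with a dye term, an alternative chosen after seeing the data. Replicate numbers go with dye orientation, and no source ties them to a shared culture. Same-numbered deviations correlated with those of CPZ at 0.0197 to 0.612 where the dyes ran the same way and at -0.32 and -0.28 where they ran the other way, and whether cultures were shared was not tested, so the arrays were not treated as paired. Genes above untreated cells by 2-fold numbered 37, against 106 with local background subtracted, 95 with median centering, 82 in the authors' ratios and 47 to 121 with an array left out. Those below numbered 84, against 155 with subtraction, 138 in the authors' ratios and 76 to 165 with an array left out.

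The RP median stayed within 0.50 to 0.72. The mitochondrial RP median of 0.63 ranged from 0.52 to 0.66 over the single arrays, the stress median of -0.72 was -0.56 with median centering, -0.57 with loess outside the ribosomal lists and -0.92 to -0.71 over single arrays, and the *Ribi* median of 0.16 was 0.21 without background correction, 0.28 with subtraction, 0.26 in the authors' ratios, 0.14 without the dimmest spots and 0.14 to 0.16 over single arrays. All 80 named genes past 2-fold kept their sign under each setting, 78 with the dimmest spots left out, and 64 were past 2-fold on either array alone. Of the 188 called genes, 1 lay in the dimmest of 5 bins of spot intensity, and the part of dimness in this was not tested.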
